A study of Mus musculus with 5 samples.

Results

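The genes Jun, Fos, Fosb, Fosl2 and Atf3, which encode subunits of the AP-1 transcription factor, were followed in open chromatin over the first 2 h of neural induction. All sites of the deposited table annotated to these 5 symbols were taken, 17 of 34714 sites in all: 1 site of Jun, 1 of Fos, 3 of Fosb, 10 of Fosl2 and 2 of Atf3. The table carries 8034 gene symbols. Chromatin was profiled by ATAC-seq, in which a transposase inserts sequencing adapters where DNA is accessible, in C17.2 cells, an established mouse line of multipotent neural stem cells, immortalised with v-myc and derived from newborn cerebellum, with the strain background CD1 x C57BL/6. The cells grew in DMEM/F12 with 10% fetal bovine serum. Induction replaced this by Knockout DMEM with GlutaMAX and N2 supplement, a medium whose label names no serum. There was 1 library each at 0 h (the control), 0.5 h, 1 h, 1.5 h and 2 h, and all 5, the control included, carry the label of neural induction. No replicate exists, so every difference below is a difference between 2 libraries, with no replicate error and no test.

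AP-1 is a dimer of basic leucine zipper (bZIP) proteins. A Jun protein pairs with itself, with a Fos protein or with an ATF protein such as Atf3, whereas Fos proteins need a Jun partner. Jun, Fos, Fosb and Atf3 are immediate early genes. Serum and stress act through kinase cascades on factors already bound at their promoters, so transcription starts within minutes and is soon shut off. Their promoters are known to be open in many cell types before any stimulus.

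Each value is a whole number from 0 to 10, taken to be how many entries of a library's BED file lay over the site, and a site with 1 or more entries is called covered. Values of this kind are not read counts, and read depth is unknown. At a value of 0 no entry lay over the site, and chromatin there may still have been open. Over all sites, the libraries differed in how much they covered: 47.6%, 58.7%, 51.2%, 66.9% and 65.7% of sites at 0, 0.5, 1, 1.5 and 2 h. Total entries were 42527, 56773, 45254, 65824 and 59437 in the same order. Of 14 neural progenitor marker genes, 8 were in the table: Msi2, Cdh2 and Hes1 were covered at every time, Sox3, Pax6 and Msi1 at none, Notch1 held 0, 1, 0, 1 and 3 entries, and Nes, the gene of the progenitor filament nestin, held 2 at 1.5 h and 0 otherwise. The listed sites of Pax6 and Msi1 lie 7454 and 70495 bp into the gene and do not report on its start. Of markers of other cell types the table held 3 of 7 for neurons, 4 of 7 for the oligodendrocyte lineage, 1 of 5 for microglia and blood, 1 of 6 for endothelium and epithelium, and none of 5 for astrocytes or of 6 for mesenchyme. Of the neuronal genes, Map2 was covered in all 5 libraries, Syp in all but that of 1 h and Rbfox3, 2613 bp into the gene, in none. Pdgfra and Cx3cr1 were covered throughout, at sites 5029 and 56864 bp from the 5′ end, and Olig1, Olig2, Mbp and Epcam in no library. Coverage of these sites is not a measure of expression.

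Fos, Fosb, Fosl2 and Atf3 were covered in all 5 libraries, and Jun was the exception, covered at 0.5 h and 1.5 h and not at 0, 1 or 2 h. Of all genes in the table, 69.1% were covered in all 5 libraries. Of the 17 member sites, 13, 15, 13, 15 and 15 were covered in the libraries of 0, 0.5, 1, 1.5 and 2 h. The 17 sites showed 9 different series of values, because neighbouring sites often held the same numbers. Over the whole table, 23481 pairs of adjacent sites were no further than 200 bp from each other. Each pair was compared in each of the 5 libraries, and of the 56425 comparisons in which the sites were not both below 2 entries, 93.5% found equal values. Sites that lie close together are therefore not separate observations.

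**Figure D1:**
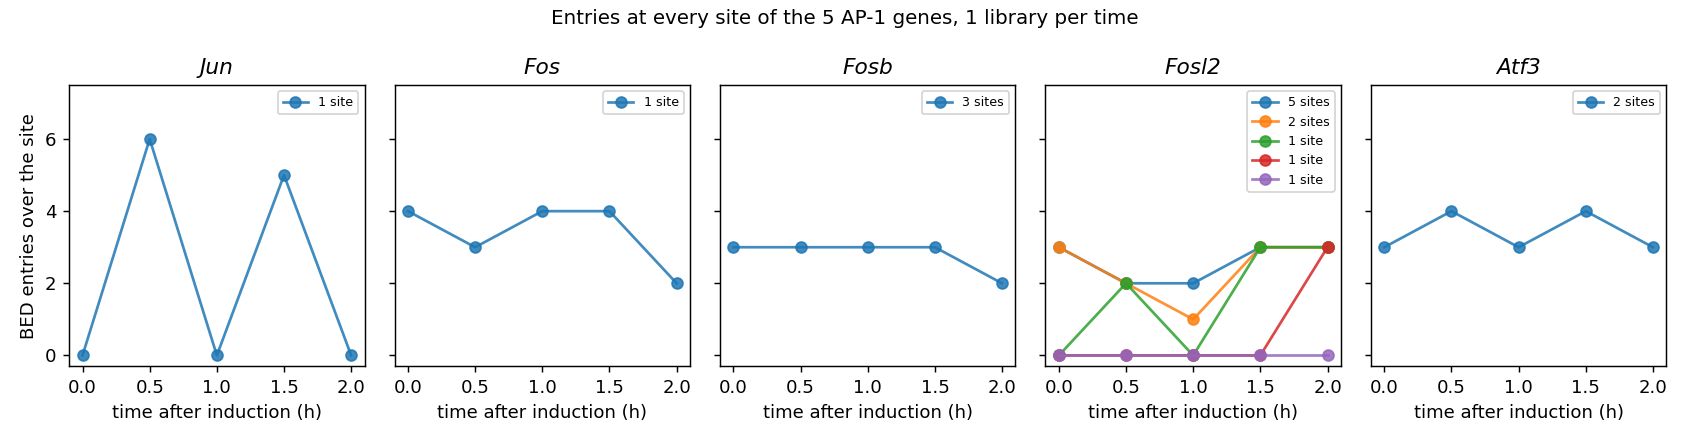
Number of BED entries (vertical axis) at every site of Jun, Fos, Fosb, Fosl2 and Atf3 against time after induction in h (horizontal axis), 1 library per time. Each line is a series of values shared by the number of sites in the key. Jun alternates between 0 and 5 or 6 entries, Fos, Fosb and Atf3 stay between 2 and 4, and the sites of Fosl2 follow 5 different series.

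Jun encodes c-Jun, which can pair with itself and is the kind of partner that Fos proteins need. The gene lies on the minus strand of chromosome 4 (95049036 to 95052222, GRCm38), and its single listed site covers 95051546 to 95051551, 671 bp inside the gene. The site held 0, 6, 0, 5 and 0 entries in the libraries of 0, 0.5, 1, 1.5 and 2 h. The covered and uncovered libraries thus followed each other in turn, and the values in the covered ones were high for the table. At 0.5 h, 1.61% of all sites held 6 or more entries, and at 1.5 h, 6.65% held 5 or more. The step of 6 entries from 0 h to 0.5 h was matched or exceeded by 8 of 8034 genes, Jun included, and the opposite step from 0.5 h to 1 h by 14. The rise of 5 entries from 1 h to 1.5 h was matched or exceeded by 53 genes, and the fall of 5 from 1.5 h to 2 h by 13.

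The other side of the Jun promoter did not alternate. Junos, an RNA gene annotated on the opposite strand, has a site at 95052668 to 95052670, 446 bp upstream of the 5′ end of Jun and 1117 bp from the Jun site. It held 6, 6, 5, 5 and 5 entries over the same times. In the libraries that covered the Jun site, the Jun and Junos sites held equal numbers, 6 and 6 at 0.5 h and 5 and 5 at 1.5 h. What alternated was therefore coverage 671 bp downstream of the Jun start, while the region 446 bp upstream of it was covered throughout. No other named site lies within 100 kb of the Jun site.

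The 250 bases upstream of the annotated start of Jun, which lie between these 2 sites, are shown because this is the region that serum and stress signals act on. They cover chr4:95052223-95052472 on the minus strand and are taken from RefSeq (GRCm38.p6), as are the other promoter sequences below; all 5 members matched an entry there. Capitals mark matches to 8 motifs searched on both strands: TGANNTCA (of AP-1 and cAMP response element type), the shorter AP-1 type TGANTCA, then TGACGT (part of a cAMP response element), the box CCAAT, the box TATAAA, the GC box GGGCGG, the CArG box bound by serum response factor and the MEF2 box. Where matches overlap, they share a run of capitals.

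Jun: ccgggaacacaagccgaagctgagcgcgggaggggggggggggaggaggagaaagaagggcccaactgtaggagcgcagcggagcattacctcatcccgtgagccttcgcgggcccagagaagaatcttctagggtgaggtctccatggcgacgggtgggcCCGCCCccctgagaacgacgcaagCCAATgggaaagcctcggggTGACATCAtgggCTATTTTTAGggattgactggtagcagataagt

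The window of Jun held 1 GC box, 1 CCAAT box, the AP-1 type sequence TGACATCA from 45 to 38 bp upstream of the start and a MEF2 box, CTATTTTTAG, from 33 to 24 bp upstream. Of 32851 RefSeq promoter windows of the same length, 11.9% held TGANNTCA, 33.8% CCAAT, 32.7% GGGCGG and 0.508% a MEF2 box. These matches are letters in the sequence and say nothing of which proteins were bound.

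The on and off order of Jun was uncommon but not restricted to it. Of 8034 genes, each represented by its site with the highest mean, 20 (0.249%) were uncovered at 0, 1 and 2 h and covered at 0.5 and 1.5 h; 0 genes and 3 sites showed the opposite order, covered at 0, 1 and 2 h only. Of the 20, Jun alone held 5 or more entries in both covered libraries, a cut equal to the lower of its own covered values. At 4 or more there were 2 genes, Jun and Vasp. Among single sites with this order, 2 held 5 or more entries in both covered libraries. Counted by site, 168 of 34714 (0.484%) followed the order. It was more frequent some way inside genes: 1.12% of 2778 sites from 500 bp to under 750 bp downstream of the 5′ end, the range in which the Jun site lies, against 0.219% of 4566 sites within 500 bp upstream. Among sites in that range, 36.0%, 52.5%, 41.8%, 62.9% and 59.5% were covered in time order, so the libraries that covered Jun at 0.5 and 1.5 h covered more of them than those of 0 and 1 h, and the 2 h library covered nearly as many as that of 1.5 h. Of the 168 sites, 101 had another site within 2000 bp that was covered in all 5 libraries, and 49 of these sites held the same numbers as such a neighbour at both 0.5 and 1.5 h, as Jun did. When sites within 2000 bp were merged, a count added after seeing the data, 17 of the 20 genes still alternated and Jun did not. The 0.5 h and 1.5 h libraries also held more entries in total than those of 0 h and 1 h; the part of this in the values of Jun was not tested. The 2 h library, which did not cover the Jun site, held more entries in total than that of 0.5 h, which did.

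**Figure D2:**
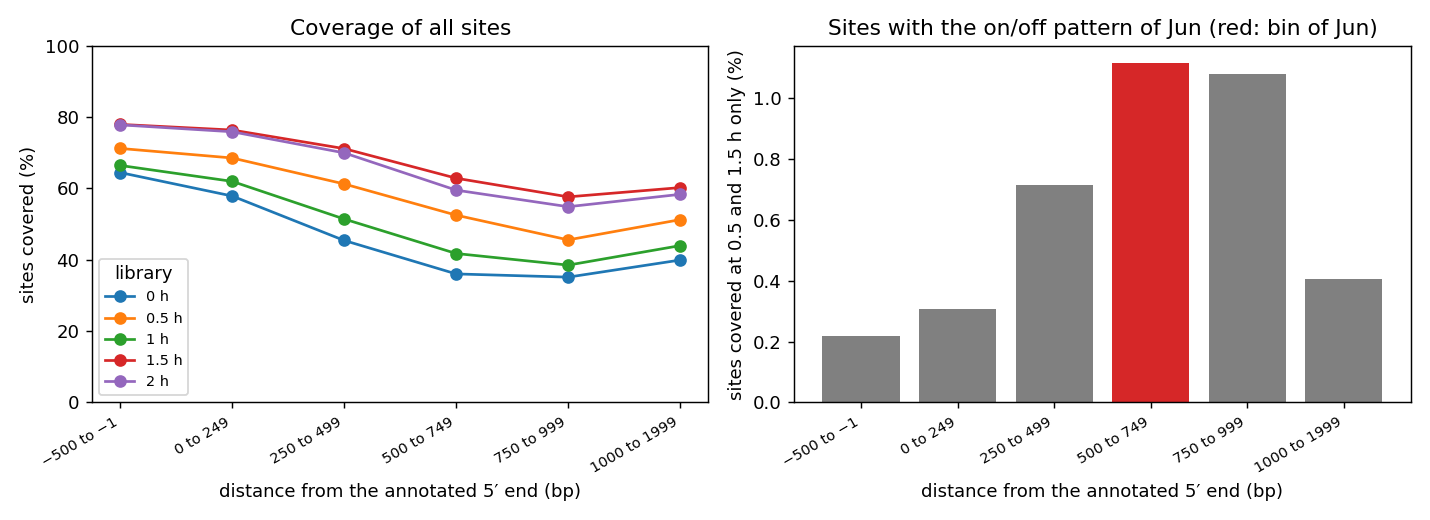
Left, share of all sites covered in each library (%) against the distance from the annotated 5′ end in bp. Right, share of sites (%) covered at 0.5 and 1.5 h only, with the range that holds the Jun site in red; ranges with under 1000 sites are left out. The red bar is the highest at 1.12%, and the next range further inside genes reaches 1.08%.

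Genes whose values were most like those of Jun were sought over the 5 libraries by the sum of absolute differences. The smallest sum, 3 entries, was reached by 2 of 7057 genes. Map3k1, which encodes a kinase of the JNK cascade, held 0, 4, 0, 5 and 1 entries over the 5 times, and its site lies 10053 bp into the gene. Vasp, an actin regulator, held 0, 4, 0, 4 and 0. No gene had exactly the values of Jun.

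Fos encodes the prototype Fos protein. The gene is on the plus strand of chromosome 12 (85473890 to 85477274), and its single site, 85473887 to 85473888, ends 2 bp before its annotated start. It held 4, 3, 4, 4 and 2 entries in the libraries of 0, 0.5, 1, 1.5 and 2 h. The value was highest at 0, 1 and 1.5 h and lowest at 2 h, where its log2 ratio to 0 h, taken on entries + 1, was -0.74. At 0 h, 9.82% of all sites held 4 or more entries, and at 2 h, 55.3% held 2 or more. The step of 2 fewer entries from 1.5 h to 2 h was shared or exceeded by 6.72% of all genes. A range of 2 or more over the 5 libraries was seen in 37.6% of genes. Of 7058 genes compared, none had exactly the values of Fos, and 20 differed from it by a sum of 1 entry, among them Fzd5, a Wnt receptor. An unnamed site 12152 bp further along the chromosome held 1, 1, 2, 1 and 1 entries.

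The Fos promoter is shown because its site abuts the start. It covers chr12:85473640-85473889 on the plus strand, and the site lies at the 3′ end of the sequence printed.

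Fos: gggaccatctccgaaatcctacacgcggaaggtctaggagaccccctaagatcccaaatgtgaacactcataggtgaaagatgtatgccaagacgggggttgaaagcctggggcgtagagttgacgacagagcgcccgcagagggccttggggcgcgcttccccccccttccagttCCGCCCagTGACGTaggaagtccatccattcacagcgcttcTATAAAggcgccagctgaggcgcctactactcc

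Capitals mark a GC box, TGACGT, part of a cAMP response element, from 66 to 61 bp upstream of the start and a TATA box from 33 to 28 bp upstream. Of the 32851 windows, 6.47% held TGACGT and 12.4% TATAAA. No CArG box, which 1.47% of windows held, was found in these 250 bases; the serum response element of Fos is known to lie further upstream.

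Fosb, a paralogue of Fos with a truncated splice form known from neurons, lies on the minus strand of chromosome 7 (19302696 to 19310118). Its 3 sites, at 19308716 to 19308722, 19308760 to 19308764 and 19308779 to 19308783, span 68 bp and lie 1335 to 1396 bp inside the gene, so they do not report on the 5′ end itself. All 3 held 3 entries at 0, 0.5, 1 and 1.5 h and 2 at 2 h. The 2 h library was the only one that differed, and it differed by 1 entry, a step that 25.5% of genes shared or exceeded. The same 5 values were held by 63 of the 7058 genes compared, among them Arf4, a small GTPase of the Golgi. Fosb stands in a dense neighbourhood. Within 100 kb, Ppp1r13l held 5 entries at its better covered site in every library, Opa3 held 3, 3, 3, 4 and 2, Ercc2 held 2, 2, 1, 2 and 2, and Rtn2 held 1, 2, 1, 3 and 3. D830036C21Rik held 1, 2, 1, 1 and 1 at 4 of its 6 sites, and the sites of Ppm1n and Klc3 held 0 throughout. Vasp, at 0, 4, 0, 4 and 0, lies 37.2 kb from the Fosb sites, which did not alternate.

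Fosl2, which encodes the Fos-related protein Fra-2, is on the plus strand of chromosome 5 (32136472 to 32157840). It has the most sites of the 5 genes, 10 over 1653 bp, from 1426 bp upstream to 220 bp downstream of the RefSeq 5′ end. The deposited annotation starts the gene further upstream. It puts the site 811 bp upstream of the RefSeq end only 140 bp from the gene. The sites at 304, 51 and 41 bp upstream are listed there as overlapping it. The distances and the start named here are those of RefSeq. The 5 sites from 1327 to 304 bp upstream each held 3, 2, 2, 3 and 3 entries in the libraries of 0, 0.5, 1, 1.5 and 2 h. The 2 sites at 51 and 41 bp upstream held 3, 2, 1, 3 and 3. In both groups of sites the 0.5 h and 1 h libraries were the lowest, and the 1 h library held 1 entry fewer than that of 0.5 h at the pair of sites next to the start.

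The first of these series was held by 22 of the 7058 genes compared, among them Cbx3, a heterochromatin protein. The edges of the covered stretch of Fosl2 differed from each other. On the gene side, the site 220 bp downstream of the RefSeq start (32136692 to 32136694) held 0 in all 5 libraries. The edge thus fell between 41 bp upstream and 220 bp downstream of the RefSeq start each time. In the deposited annotation both of these sites overlap the gene. On the far side, the site 1380 bp upstream (32135092) held 0, 2, 0, 3 and 3 entries over the 5 times. The outermost site, 1426 bp upstream (32135042 to 32135046), held 0 at 0, 0.5, 1 and 1.5 h and 3 at 2 h. The number of Fosl2 sites covered was 7, 8, 7, 8 and 9 in time order. The coverage of the site 1380 bp upstream shares with that of Jun that it was present at 0.5 and 1.5 h and absent at 0 and 1 h. At 2 h they differed. Over all sites, 1750 (5.04%) had the order of this Fosl2 site and 168 (0.484%) that of the Jun site. The libraries with more member sites covered are those with more sites covered over the whole table, and the part of this in the Fosl2 edge was not tested.

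**Figure D3:**
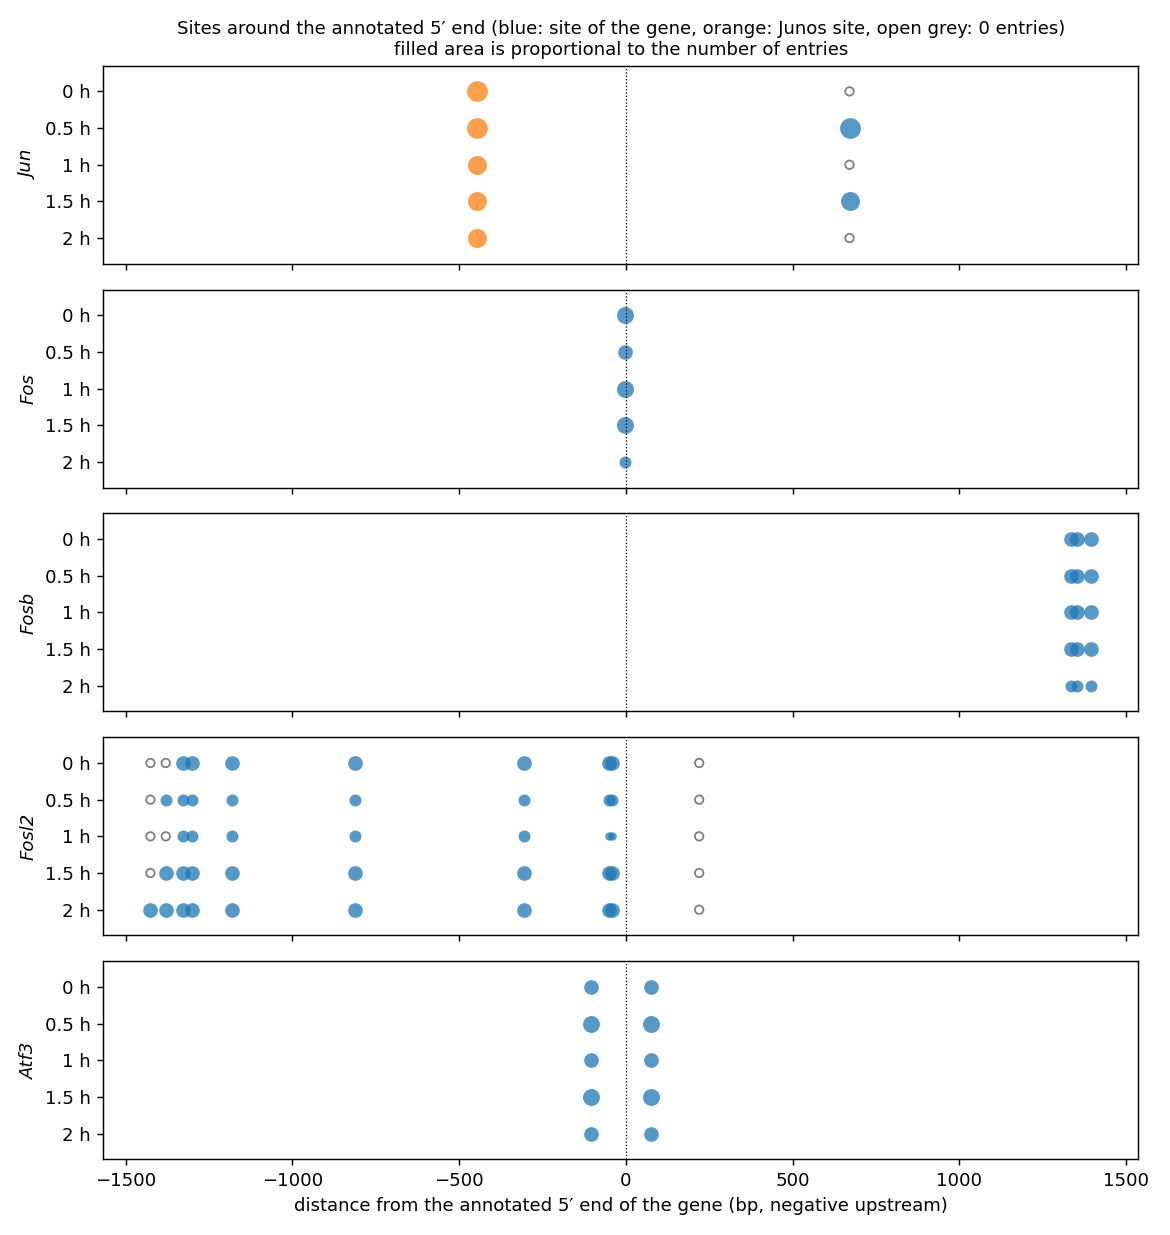
Sites of each gene by distance from its annotated 5′ end in bp (horizontal axis, negative upstream) in the 5 libraries (vertical axis). The filled area is proportional to the number of entries, open circles mark 0 entries, and the orange points are the Junos site drawn relative to Jun. The Junos site is covered in all 5 libraries and the Jun site in 2, and the upstream edge of Fosl2 reaches its outermost site at 2 h only.

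The Fosl2 promoter of RefSeq is shown because 2 of its sites lie inside it, at 51 and 41 bp before the RefSeq start. It covers chr5:32136222-32136471 on the plus strand.

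Fosl2: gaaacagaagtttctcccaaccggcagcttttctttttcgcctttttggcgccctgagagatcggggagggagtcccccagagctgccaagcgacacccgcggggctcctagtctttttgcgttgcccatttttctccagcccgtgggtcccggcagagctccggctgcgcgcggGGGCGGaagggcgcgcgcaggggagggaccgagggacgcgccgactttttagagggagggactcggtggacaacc

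Its only match to the 8 motifs was 1 GC box. Atf3, a stress-induced partner of Jun that also represses its own promoter, has a promoter of another makeup, shown for comparison and because 1 of the 2 Atf3 sites lies in it. It covers chr1:191183334-191183583 on the minus strand.

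Atf3: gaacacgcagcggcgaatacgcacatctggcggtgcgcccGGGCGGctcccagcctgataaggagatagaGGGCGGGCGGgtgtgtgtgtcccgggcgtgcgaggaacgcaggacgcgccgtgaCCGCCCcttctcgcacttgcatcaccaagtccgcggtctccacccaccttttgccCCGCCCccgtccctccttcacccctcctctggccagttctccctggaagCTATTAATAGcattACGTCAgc

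The Atf3 window held 5 GC boxes, 2 of which overlap, a MEF2 box, CTATTAATAG, and TGACGT on the reverse strand, 8 to 3 bp upstream of the start. Jun and Atf3 thus both held a MEF2 box match in these windows, and Fos and Atf3 both held TGACGT. The promoter window of Fosb ends at a RefSeq transcript start 73 bp inside the 5′ end used for its distances, so part of it lies within the gene. None of the Fosb sites is in it, and it held 3 GC boxes and none of the other 7 motifs.

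Atf3 lies on the minus strand of chromosome 1 (191170296 to 191183333). Its sites flank the RefSeq start, at 191183436 to 191183439, 103 bp upstream, and 191183252 to 191183256, 77 bp downstream. The deposited annotation lists both sites as overlapping the gene, which there reaches at least the site 103 bp upstream. Both sites held 3, 4, 3, 4 and 3 entries in the libraries of 0, 0.5, 1, 1.5 and 2 h. The higher values fell in the same libraries as those of Jun, but the range was 1 entry, against 6 for Jun. A range of 1 or more was seen in 69.7% of genes and a range of 6 or more in 0.585%. The values of Atf3 were shared by 10 of the 7058 genes compared, among them Cltc, the clathrin heavy chain. Batf3, an AP-1 partner gene 84.8 kb away, held 0, 1, 0, 1 and 1 entries, an unnamed site 57.2 kb away held 2, 1, 0, 2 and 2, and D730003I15Rik, 40.9 kb away on the other side, held 3, 3, 3, 4 and 3.

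Against 0 h, the members did not move together. The 4 comparisons share the 0 h library and are given side by side. At 0.5 h, Jun and Atf3 held more entries than at 0 h, Fos and Fosl2 held fewer and Fosb the same number. Of all genes, 28.1% held more and 15.6% fewer. These and the following shares of all genes include 1542 genes (19.2%) with 0 entries in all 5 libraries. Such genes can hold neither more nor fewer, and no member is among them. At 1 h, no member held more and Fosl2 alone held fewer, where 20.6% of genes held more and 21.9% fewer. At 1.5 h, Jun and Atf3 again held more and none fewer, where 31.3% held more and 17.8% fewer. At 2 h, no member held more and Fos and Fosb held fewer, where 25.7% held more and 22.9% fewer.

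Jun was the only member at least 2-fold higher on the log2(entries + 1) scale, at 0.5 h (2.81) and at 1.5 h (2.58), and no member was 2-fold lower at any time. Of all genes, 8.20% passed this fold upward and 2.15% downward at 0.5 h. These shares were 4.69% and 4.87% at 1 h, 11.5% and 1.80% at 1.5 h, and 9.56% and 3.45% at 2 h. The split depended on the scale. Of the genes past 2-fold, 79.2%, 49.1%, 86.4% and 73.5% were higher at 0.5, 1, 1.5 and 2 h as deposited, and 52.1%, 30.3%, 56.0% and 44.1% after division by the library total. Division by the library total moved the median log2 ratio of genes covered in any library from 0 to -0.26, -0.06, -0.39 and -0.30 over the same times. On that scale Jun stayed higher, at 4.49 entries at 0.5 h and 3.23 at 1.5 h against 0 at 0 h. Atf3 did not, with 2.996 at 0.5 h and 2.58 at 1.5 h against 3 at 0 h, and all 4 members other than Jun then held less than at 0 h at every later time. This division lowers every covered gene whose entries stayed equal, since each later library total exceeds that of 0 h. The share of all genes that held less on that scale was not counted.

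The wider family held the partners of Jun and Fos and other bZIP genes, and its median gene kept the control value at each time. Of 41 such genes listed, 30 were in the table, 19 of them covered in all 5 libraries and 3 in none. More entries than in the control were held by 8, 8, 11 and 12 of them over the 4 later times, and fewer by 3, 5, 4 and 4. These are 26.7%, 26.7%, 36.7% and 40.0% with more, against 28.1%, 20.6%, 31.3% and 25.7% of all genes, and 10.0%, 16.7%, 13.3% and 13.3% with fewer, against 15.6%, 21.9%, 17.8% and 22.9%. The median log2 ratio was 0 throughout, as it was over all genes. The shares over all genes include the 19.2% with 0 in all 5 libraries, which can hold neither more nor fewer. Such genes were 3 of 30 here, 2 of 28 kinase genes, 0 of 14 promoter factor genes and 0 of 22 cofactor genes. They were 2 of 37 immediate early genes and 3 of 16 AP-1 targets. The shares of the lists and of all genes are therefore not on an equal footing. The counts for this and the following lists are of entries as deposited. The later libraries held 1.33, 1.06, 1.55 and 1.40 times the entries of the control, so after division by the library total a covered gene with an equal number falls below its control value. The close relatives of Jun had low values. Junb held 1, 1, 0, 0 and 0 entries over the 5 times, 155 bp into the gene, and Jund held 2 in every library, 1061 bp into the gene. Neither alternated.

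Among genes of proteins that can dimerise with Jun or Fos or bind the same sites, Jdp2, a repressor that pairs with Jun, held 0, 0, 0, 2 and 2 entries. The small Maf genes, which lack an activation domain, were covered unevenly: Maff held 3 in every library, Mafk 1, 1, 2, 1 and 1, and Mafg 0, 2, 0, 2 and 2. Among large Maf genes, Maf held 7, 7, 4, 5 and 6, Mafa 2, 2, 2, 2 and 1, and the photoreceptor gene Nrl 0 throughout. The sites of Maff and Mafg lie 1016 and 1816 bp into their genes. Mafg and Batf3 were covered at 0.5, 1.5 and 2 h and not at 0 or 1 h, an order found in 143 genes.

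The ATF and CREB genes, whose proteins bind cAMP response elements, ranged over at most 2 entries each. Creb1 held 2 in every library, Atf1 3, 2, 2, 3 and 4, Atf4, a factor of the integrated stress response, 3, 3, 4, 3 and 3, and Atf5 3, 3, 3, 4 and 3. Creb5 held 3, 2, 3, 3 and 3, and Crem 3, 3, 4, 3 and 3. Of the cap'n'collar and Bach genes, Nfe2l2, which encodes the oxidative stress factor Nrf2, held 3, 5, 4, 4 and 4, Bach1 3, 3, 3, 3 and 4, Bach2 2, 3, 3, 2 and 2, and Nfe2l3 0 throughout.

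More distant bZIP genes included the widest ranges of the list. Xbp1, a factor of the unfolded protein response, held 2, 6, 6, 5 and 4, and Nfil3 held 2, 3, 0, 1 and 4. Cebpd held 5, 4, 4, 3 and 3, Cebpg 2, 3, 3, 3 and 2, Cebpa 0, 0, 0, 3 and 0, and Cebpb 0 throughout. The circadian output genes Tef, Hlf and Dbp held 3, 4, 4, 4 and 4, then 1, 1, 1, 2 and 2, then 0, 0, 0, 0 and 2. The sites of Tef, Dbp, Nfil3 and Cebpb lie 8793, 1938, 1540 and 1020 bp into their genes. Xbp1 and Nfil3 had the widest range of the 30 genes, 4 entries, against 6 for Jun.

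**Figure D4:**
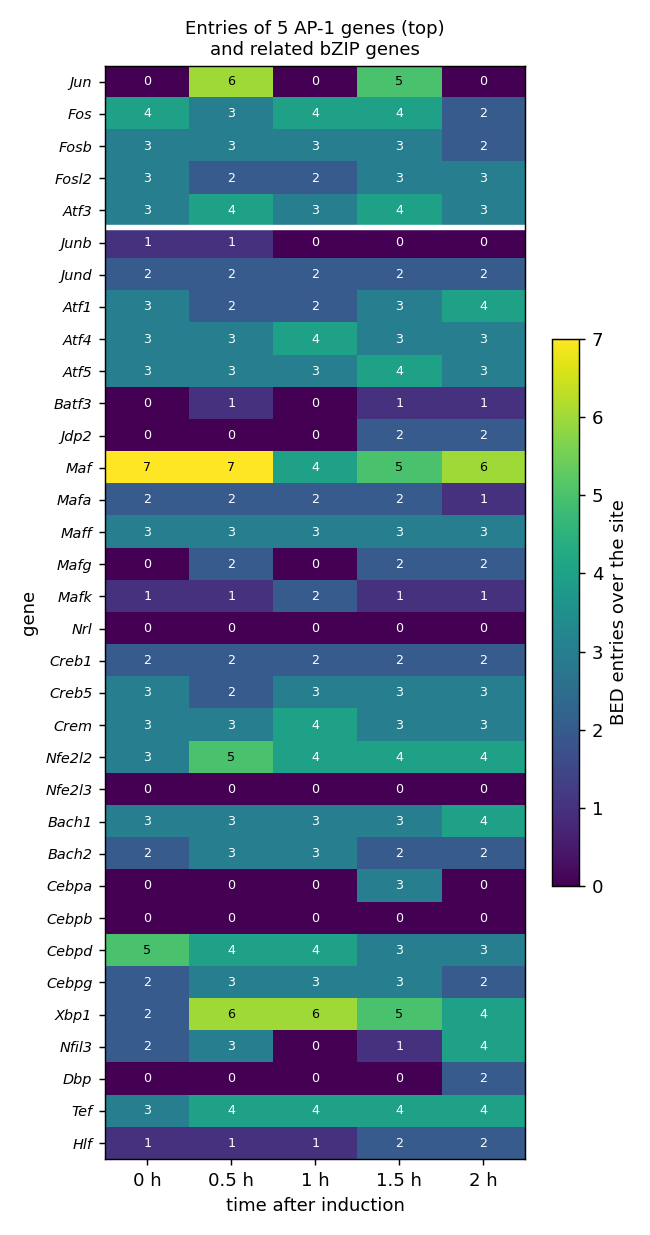
Number of BED entries (colour and printed digits) at the site with the highest mean of each gene, by time after induction. The 5 AP-1 genes are above the white line and related bZIP genes below it. Jun is the only gene shown that is covered at 0.5 and 1.5 h and at no other time, an order that 0.249% of all genes had.

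Genes of the kinases that phosphorylate AP-1 proteins or act above them were in the table for 28 of 43 listed. Over the 4 later times 11, 9, 14 and 10 of them exceeded their control value, and 5, 6, 5 and 6 were below it. In percent, 39.3, 32.1, 50 and 35.7 were above (28.1%, 20.6%, 31.3% and 25.7% of all genes) and 17.9, 21.4, 17.9 and 21.4 below (15.6%, 21.9%, 17.8% and 22.9% of all genes). The median log2 ratio was 0.16 at 1.5 h and 0 at the other times, against 0 over all genes. Besides Map3k1, wide log2 ratios were those of Map2k4, an activator of JNK, at 0, 2, 1, 2 and 1 entries, and of the adaptor gene Grb2 at 1, 2, 2, 4 and 3. Of the JNK genes, Mapk8 was in the table, at 1, 1, 3, 3 and 3 entries.

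Genes of factors that bind the Fos and Jun promoters were in the table for 14 of 26 listed. More entries than in the control were held by 5, 3, 7 and 7 of them over the 4 later times, and fewer by 4, 5, 2 and 3. The shares with more were 35.7%, 21.4%, 50% and 50%, where all genes had 28.1%, 20.6%, 31.3% and 25.7%, and those with fewer 28.6%, 35.7%, 14.3% and 21.4%, where all genes had 15.6%, 21.9%, 17.8% and 22.9%. The median log2 ratio was 0.13 at 1.5 h and at 2 h and 0 before. Srf, which encodes serum response factor, held 2 entries in every library, 4909 bp into the gene. Sp3 held 2, 3, 0, 4 and 3, Mef2d 0, 0, 0, 2 and 1, the ternary complex factor gene Elk3 0, 1, 0, 0 and 1, and Mrtfb, a coactivator of serum response factor, 5, 3, 3, 3 and 3.

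Genes of AP-1 cofactors and of proteins that degrade AP-1 were in the table for 22 of 28 listed, and fewer of them held more entries than held fewer. Over the 4 later times 2, 3, 3 and 3 of them exceeded their control value, and 6, 8, 7 and 9 were below it. Shares above were 9.09%, 13.6%, 13.6% and 13.6%, against 28.1%, 20.6%, 31.3% and 25.7% over all genes, and shares below 27.3%, 36.4%, 31.8% and 40.9%, against 15.6%, 21.9%, 17.8% and 22.9%. All 22 were covered at 0 h, against 72.8% of all genes, so none of them could go from uncovered to covered. The median log2 ratio was 0 at each time for the list and for all genes. The coactivator gene Ep300 held 2, 4, 5, 4 and 5, and Ddb1, of a ubiquitin ligase, and the deacetylase gene Hdac1 held 3, 2, 3, 2 and 1 each. Cop1, the ubiquitin ligase that marks Jun for degradation, held 6, 5, 4, 4 and 5.

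Of 48 other immediate early genes, which are induced by the same signals, 37 were in the table. More entries than in the control were held by 14, 7, 11 and 10 of them over the 4 later times, and fewer by 5, 9, 6 and 11. That is 37.8%, 18.9%, 29.7% and 27.0% with more, beside 28.1%, 20.6%, 31.3% and 25.7% of all genes, and 13.5%, 24.3%, 16.2% and 29.7% with fewer, beside 15.6%, 21.9%, 17.8% and 22.9%. The median log2 ratio was 0 throughout. Ier5 held 0, 3, 3, 3 and 3, Klf10 0, 3, 1, 2 and 2, the antiproliferative gene Btg1 0, 2, 0, 3 and 2, and Gadd45b 5, 3, 3, 1 and 3. The Klf10 site lies 1427 bp into the gene. None of the 37 was covered at 0.5 and 1.5 h alone, an order that only 0.249% of all genes had, so few or none would be found in a list of this size. Of 35 genes known as AP-1 targets, 16 were in the table, of which 6, 4, 8 and 7 exceeded their control value over the 4 later times and 3, 6, 4 and 6 were below it. Their shares above were 37.5%, 25.0%, 50% and 43.8% (28.1%, 20.6%, 31.3% and 25.7% over all genes), and their shares below 18.8%, 37.5%, 25.0% and 37.5% (15.6%, 21.9%, 17.8% and 22.9% over all genes). Their median log2 ratio was 0.16 at 1.5 h and 0 otherwise. Tgfb1 held 4, 3, 0, 1 and 1, Gclc, of glutathione synthesis, 0, 2, 3, 3 and 2, the growth factor gene Areg 1, 1, 2, 2 and 3, and the apoptosis gene Bcl2l11 1, 2, 1, 3 and 2.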

How the data were processed

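ATAC-seq was run on C17.2 cells at 5 times, with 1 library each. The tools Bowtie2, MACS2 and deepTools and the build mm10 (GRCm38) come per the submitters' processing notes. Versions, settings, the shift for the transposase and the threshold for peaks were not given there or in any other source used. The deposited table gives whole numbers per site under columns named after BED files, per the file headers, and they were read as BED entries. Without replicates no test was run, and with no read depth no interval is given; the planned description by values and counts was kept.

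Each gene took the site with its highest mean over the 5 libraries, ties going to the site nearest the annotated 5′ end (RefSeq, GRCm38.p6, which matched 7551 of 8034 symbols). Log2 ratios used a pseudocount of 1, which understates differences of low values, and no filter on low values. Distances run from that end to the nearest base of a site. The 762 sites with no gene name were not assigned to genes. Likeness of genes was the sum of absolute differences over the libraries. Left out were genes within 5000 bp, the other members, symbols of Gm and a digit or ending in Rik, and Galnt2l. The first 4 in alphabetical order could be named. From each list the 4 genes with the widest log2 ratio were named, all members of the bZIP list, and in addition Mapk8, Srf, Cop1 and the marker genes, chosen after their values were seen; some genes these rules name are not reported here. The members and lists were chosen with earlier results of these data known. Counting was checked on simulated data. Python 3.11.15 with pandas 2.3.3 and numpy 2.4.6 was used. The alternatives changed the site that stands for a gene, the scaling, the pseudocount, the filter and the definition of covered.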

Additional observations from a re-analysis of the deposited data

How the results depend on the processing

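Of 70 alternative values over 22 results, 41 lay within 1.5 times the reported one. The choice of site (the one nearest the 5′ end, or the median over sites) left the counts of members with more or fewer entries as they were, but it could act on Fosl2 alone, since each other member has a single series of values. Division by the library total changed most of them: members with more entries became 1 at 0.5 h and 1 at 1.5 h, Jun in both, and members with fewer became 4 at 0.5, 1, 1.5 and 2 h. Every covered gene with equal entries falls under this division, and the share of all genes with fewer on that scale was not counted. On that scale genes at least 2-fold higher numbered 294, 170, 459 and 381 over the 4 later times, against 659, 377, 921 and 768 as deposited, and genes at least 2-fold lower 270 at 0.5 h, 361 at 1.5 h and 482 at 2 h, against 173, 145 and 277. Among 4056 better covered genes (mean not below that of the median gene), 314, 205, 369 and 295 were higher and 59, 157, 62 and 152 lower. These counts are out of 4056 genes and those as deposited out of 8034, so they are not on an equal footing. With the median over sites 1384 were higher at 1.5 h and 1253 at 2 h; the cause was not tested. A pseudocount of 0.5 is not counted here: for whole numbers it gives the same 2-fold calls by construction. Within 1000 bp of the 5′ end, where 9 of the 17 member sites lie, 7, 8, 7, 8 and 7 were covered from 0 h to 2 h. With 2 or more entries required, 73 genes in place of 20 were covered at 0.5 and 1.5 h only. With sites within 2000 bp merged, an alternative chosen after seeing the data, 19 were. No paired analysis was possible because each time has 1 library. No single value has a known precision, since the reads behind it are not known.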
